A study of Mus musculus with 33 samples.

Results

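The genes described here are 39 markers of the brain's blood vessels and coverings, taken as a fixed list of gene symbols and divided by cell type: 20 endothelial genes, 9 genes of mural cells, 2 caveolins that both of these cell types express, and 8 genes of fibroblasts and the meninges. The rule that lists them uses no measured value, but the list was chosen with earlier results of these data known. All 39 were found among the 38355 genes of the count files and, as loci, among the 40678 loci of the FPKM files. RNA was measured in the CA1 region of the mouse hippocampus in 2 experiments. The first compared mice of 8 to 10 months: APP mice given JQ1, an inhibitor of the BET bromodomain proteins that read acetylated histones, at 50 mg/kg by intraperitoneal injection (6 samples), APP mice given vehicle containing 10% DMSO (6 samples), and WT mice given the same vehicle (4 samples), each over 10 days. The second compared C57B/6JRj WT mice of 3 months given JQ1 at 50 mg/kg (8 samples) or the 10% DMSO vehicle (8 samples) over 13 days. APP stands for the APP/PS1-21 line on a C57B/6 background, whose mutant human APP is driven by the neuronal Thy1 promoter. The strain label of the aged WT samples also names this line, so the WT group rests on the sample titles. The mice had been trained in the water maze before the tissue was taken, treated and control animals alike. Aged WT replicate 2 was not analysed here. The samples are numbered within each group but are not stated to be 1 animal each, so a p-value measures the spread between these samples.

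Brain capillaries are tubes of endothelial cells sealed by tight junction proteins such as claudin 5 and occludin, and they carry transporters that move glucose, lipids and drugs across the barrier. Pericytes wrap the capillaries and are marked by Pdgfrb and Rgs5, whereas the smooth muscle cells of arterioles contract with the products of Acta2, Tagln and Myh11 and depend on the receptor Notch3. Fibroblasts along larger vessels and in the pia and arachnoid lay down collagens and the small proteoglycans decorin and lumican. Reads from whole CA1 tissue measure all of these cells together, so fewer cells of a type and less RNA per cell cannot be told apart.

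The aged samples held between 14605459 and 25339482 reads counted on genes. A count of 3 corresponded to between 0.118 and 0.205 CPM (counts divided by the library total and scaled to a fixed total), and 38 of the 39 genes had at least 10 counts in every aged library, the exception being H19. For the young samples only FPKM, which are normalised to transcript length and depth, were analysed, and their depth is unknown. The labelled tissue carried its vascular markers throughout: Cldn5 lay between 17.4 and 31.1 CPM in the aged libraries and Pdgfrb between 22.7 and 37.2 CPM. One aged library stood apart in RNA of the choroid plexus, the ventricular tissue that secretes cerebrospinal fluid. The summed level of 9 choroid plexus genes was 4230 CPM in WT vehicle replicate 4 and between 161.1 and 279.1 CPM in the other 15 libraries, and Ttr, the defining marker, stood at 3065 CPM there. Several named estimates moved without this library, and the value without it is given for some of them only.

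The start regions of 4 vascular genes are shown because these genes had estimates on opposite sides of 0 in the JQ1 comparison in APP mice: Acta2 and Notch3 of smooth muscle below it, Rgs5 of pericytes and the endothelial transporter gene Slco1a4 above it. Each is the 250 bases upstream of the RefSeq start on build GRCm38.p6, read 5′ to 3′ along the gene. Acta2 lies at chr19:34255374-34255623 on the minus strand, Notch3 at chr17:32166891-32167140 on the minus strand, Rgs5 at chr1:169655251-169655500 on the plus strand and Slco1a4 at chr6:141856221-141856470 on the minus strand. Capitals mark the CArG box, the site of serum response factor that smooth muscle genes are known for, with up to 1 mismatch in its 6 central bases.
Acta2: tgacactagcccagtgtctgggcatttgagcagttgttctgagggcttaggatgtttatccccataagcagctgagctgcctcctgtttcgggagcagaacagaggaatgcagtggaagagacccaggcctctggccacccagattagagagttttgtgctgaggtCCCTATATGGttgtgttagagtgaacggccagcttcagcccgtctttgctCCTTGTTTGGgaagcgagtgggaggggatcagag
Notch3: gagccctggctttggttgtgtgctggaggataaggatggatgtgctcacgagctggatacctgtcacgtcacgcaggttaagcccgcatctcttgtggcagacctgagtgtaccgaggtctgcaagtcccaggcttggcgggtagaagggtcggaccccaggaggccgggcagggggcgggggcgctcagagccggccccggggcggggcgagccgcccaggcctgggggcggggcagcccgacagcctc
Rgs5: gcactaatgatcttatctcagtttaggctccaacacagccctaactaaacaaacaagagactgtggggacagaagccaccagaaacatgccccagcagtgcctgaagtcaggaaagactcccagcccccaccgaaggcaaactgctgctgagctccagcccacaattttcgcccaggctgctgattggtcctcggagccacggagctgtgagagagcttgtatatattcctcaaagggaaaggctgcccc
Slco1a4: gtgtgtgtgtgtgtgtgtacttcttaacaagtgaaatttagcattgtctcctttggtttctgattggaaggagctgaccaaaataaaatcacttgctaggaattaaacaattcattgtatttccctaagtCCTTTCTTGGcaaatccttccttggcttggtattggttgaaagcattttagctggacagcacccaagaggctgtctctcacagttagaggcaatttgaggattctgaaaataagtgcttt
Acta2 held 2 such boxes and Slco1a4 held 1, and none was found in these windows of Notch3 and Rgs5. Of 32851 start regions of the same length, 8.59% held at least 1 such box and 0.67% held 2 or more. The outline of the box reads the same on both strands, so 1 search covers both. The 4 windows also differed in base composition, with a GC content of 68.8% in Notch3, 53.6% in both Acta2 and Rgs5 and 39.2% in Slco1a4. RefSeq start regions were found for 28 of the 39 genes, but not for Tagln or Myh11. At least 1 such box also lay in a start region of Kdr, Ocln, Eng, Col1a2 and Igf2, which are not smooth muscle markers here.

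None of the 39 genes passed an adjusted p of 0.05 in any of the 4 comparisons. In young mice the vascular genes ranked over a wide range of FPKM, the only scale here on which levels of different genes can be set side by side. In the vehicle group the pericyte matrix gene Vtn stood at 35.1 ± 5.06 FPKM (SD, n = 8), the endothelial membrane protein gene Itm2a at 33.2 ± 4.12, the glucose transporter gene Slc2a1 at 30.6 ± 3.16 and the pericyte gene Rgs5 at 28.9 ± 3.73. These neighbours in the order lie within about 1 SD of each other. Dcn, which codes for decorin, was the highest gene of the fibroblast class at 53.8 ± 13.1 FPKM. Eng is listed at 65.9 FPKM, but its locus also holds Ak1, so that value is not that of Eng alone; the loci of Esam and H19 are joined with Vsig2 and Mir675 in the same way. At the lower end stood Myh11 at 1.23 ± 0.109, the fibrillar collagen gene Col1a1 at 1.18 ± 0.496, the aminopeptidase gene Anpep at 1.04 ± 0.295 and Col3a1 at 0.469 ± 0.173 FPKM.

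The classes differed in how much they varied between libraries of the same group. On the log2 scale of CPM, the median SD within groups of the aged samples was 0.25 for the endothelial genes, 0.37 for the mural genes, 0.39 for the caveolins and 0.55 for the fibroblast and meningeal genes, beside 0.24 for all 16962 genes tested. The steadiest were Slc2a1, with an SD of 0.13, and the organic anion transporter gene Slco1a4, with 0.14. The fibroblast genes were also the most variable class in the young samples, where their median SD on the log2 scale of FPKM was 0.46, against 0.18 for the endothelial and 0.18 for the mural genes. The summed CPM of the 20 endothelial genes ran from 605.0 to 757.9 in APP vehicle samples, from 645.3 to 794.2 in APP JQ1 samples and from 637.0 to 681.8 in WT samples. The summed CPM of the 8 fibroblast and meningeal genes ran from 109.8 to 226.3, from 158.8 to 244.9 and from 124.0 to 255.7 in the same groups, so the ranges of the 3 groups overlapped in both classes. Such sums mostly follow genes with many reads, such as Dcn, and say little about low genes such as Col1a1.

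**Figure D1:**
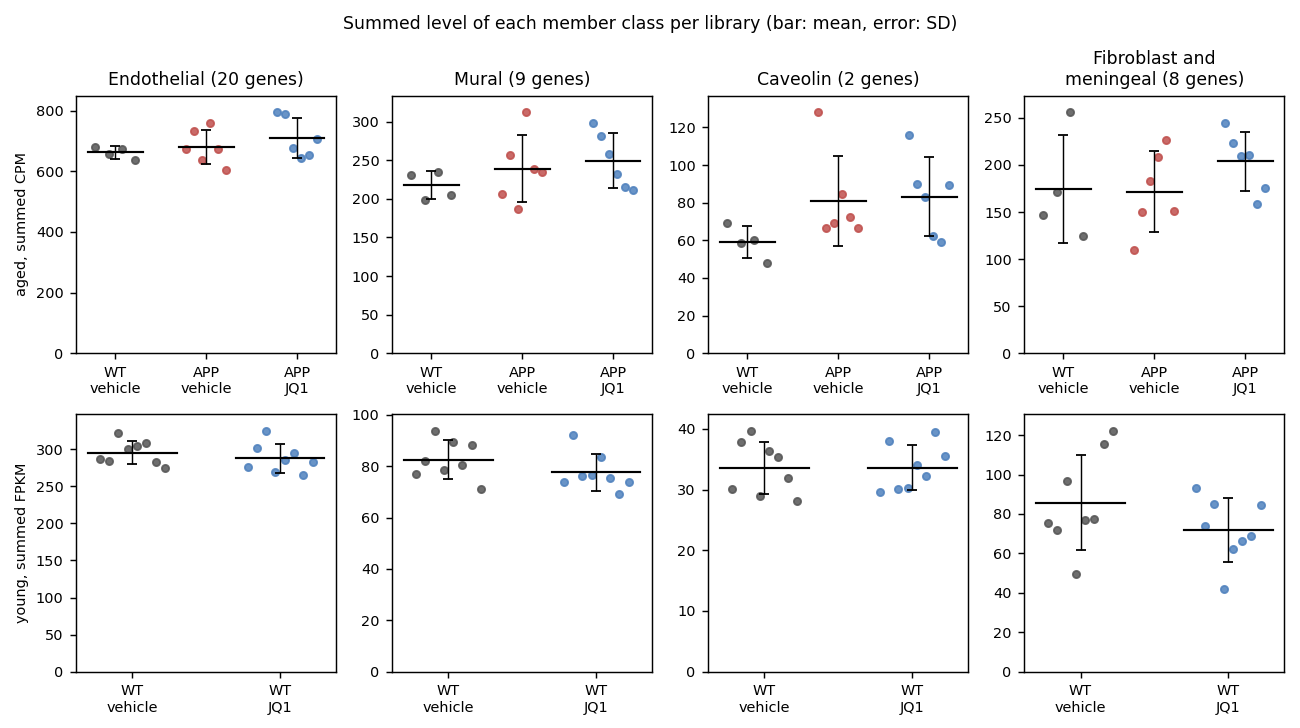
Summed level of each class of genes in every library, in CPM for the aged samples (upper row) and FPKM for the young samples (lower row); each point is 1 library, the bar is the group mean and the error bar the SD. The endothelial sums of the aged libraries lie between 605.0 and 794.2 CPM with all 3 groups overlapping, and the groups of the other classes overlap as well.

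The first comparison asked what JQ1 does to the vascular genes of APP mice. No member was called by edgeR's quasi-likelihood test, against 1.08% of all genes, and none by DESeq2, against 4.43%. At an unadjusted p under 0.05 there were 7 of 39 members, beside 17.6% of all genes: 4 members were higher with JQ1, against 8.42% of genes, and 3 lower, against 9.19%. No member had groups that did not overlap, as 2.03% of all genes did. Among the mural genes the estimates lay on both sides of 0. The contractile smooth muscle genes among the members, Acta2, Tagln and Myh11, had lower means with JQ1. The pericyte gene Rgs5 had a higher one, while the pericyte receptor gene Pdgfrb lay near 0.

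Acta2, the smooth muscle actin, stood between 9.45 and 28.8 CPM (median 14.5) in the APP vehicle samples and between 6.13 and 17.0 CPM (median 11.02) in the APP JQ1 samples. The groups overlapped, with the highest value in APP vehicle replicate 4 and the lowest in APP JQ1 replicate 4. The log2 fold change was -0.51 (95% interval -1.06 to 0.05, adjusted p = 0.334 by edgeR; exact permutation p = 0.149). Tagln, which codes for the actin-binding protein transgelin, ran from 8.78 to 17.4 CPM (median 10.8) with vehicle and from 4.80 to 11.05 CPM (median 8.60) with JQ1. It differed by -0.46 (-0.86 to -0.06; adjusted p = 0.22 by edgeR, exact permutation p = 0.0519). The smooth muscle myosin gene Myh11 ran from 8.30 to 19.3 CPM (median 10.1) with vehicle and from 3.84 to 12.1 CPM (median 8.14) with JQ1. APP JQ1 replicate 1 was the highest JQ1 library for all 3 contractile genes and lay inside the vehicle range of each. Myh11 differed by -0.53 (-1.05 to -0.01; adjusted p = 0.275 by edgeR, exact permutation p = 0.108).

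Notch3, the receptor that maintains arteriolar smooth muscle, had the largest estimate of the mural class. It ran from 16.9 to 37.1 CPM (median 23.8) in APP vehicle samples and from 8.53 to 25.2 CPM (median 15.4) in APP JQ1 samples, and the WT samples held 10.1, 15.0, 21.4 and 15.8 CPM. The APP vehicle group was thus the high one of the 3, and the JQ1-treated APP samples and WT samples had medians of the same size. The log2 fold change between APP JQ1 and APP vehicle was -0.60 (-1.11 to -0.09; adjusted p = 0.209 by edgeR, exact permutation p = 0.0455, unadjusted). Without APP vehicle replicate 1, the highest library, it was -0.45.

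The contractile estimates leaned on single libraries, in both directions. APP vehicle replicate 4 was the highest of all 16 aged libraries for Acta2, Tagln and Myh11. Without it the log2 fold changes of JQ1 against vehicle were -0.26 for Acta2, -0.30 for Tagln and -0.34 for Myh11, and none had an unadjusted p under 0.05. Without APP JQ1 replicate 1 they were -0.66, -0.55 and -0.67. Of the 16 fits with 1 library left out, 3, 14 and 8 had an unadjusted p under 0.05 by edgeR for these genes. APP vehicle replicate 4 was also the highest of its group in Itm2a (99.3 CPM), Vtn (110.0 CPM), Vwf (48.8 CPM) and Lum (9.59 CPM), and its choroid plexus sum of 249.6 CPM was the highest of its group. Whether the contractile genes followed the tissue content of this library was not tested.

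Rgs5, a regulator of G protein signalling that marks pericytes, lay on the other side. It ran from 41.0 to 73.6 CPM (median 59.4) in APP vehicle samples and from 59.5 to 90.5 CPM (median 85.6) in APP JQ1 samples. Of the JQ1 libraries 4 were above every vehicle library. Rgs5 differed by 0.43 (0.08 to 0.79; adjusted p = 0.197 by edgeR, exact permutation p = 0.0281, unadjusted). Among the other pericyte genes, Pdgfrb ran from 26.1 to 32.2 CPM (median 30.8) with vehicle and from 22.7 to 37.2 CPM (median 26.7) with JQ1, a log2 fold change of -0.07 (-0.32 to 0.19). The potassium channel subunit gene Abcc9 differed by -0.04 (-0.49 to 0.40), Vtn by 0.21 (-0.10 to 0.52) and Anpep by 0.02 (-0.60 to 0.64).

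**Figure D2:**
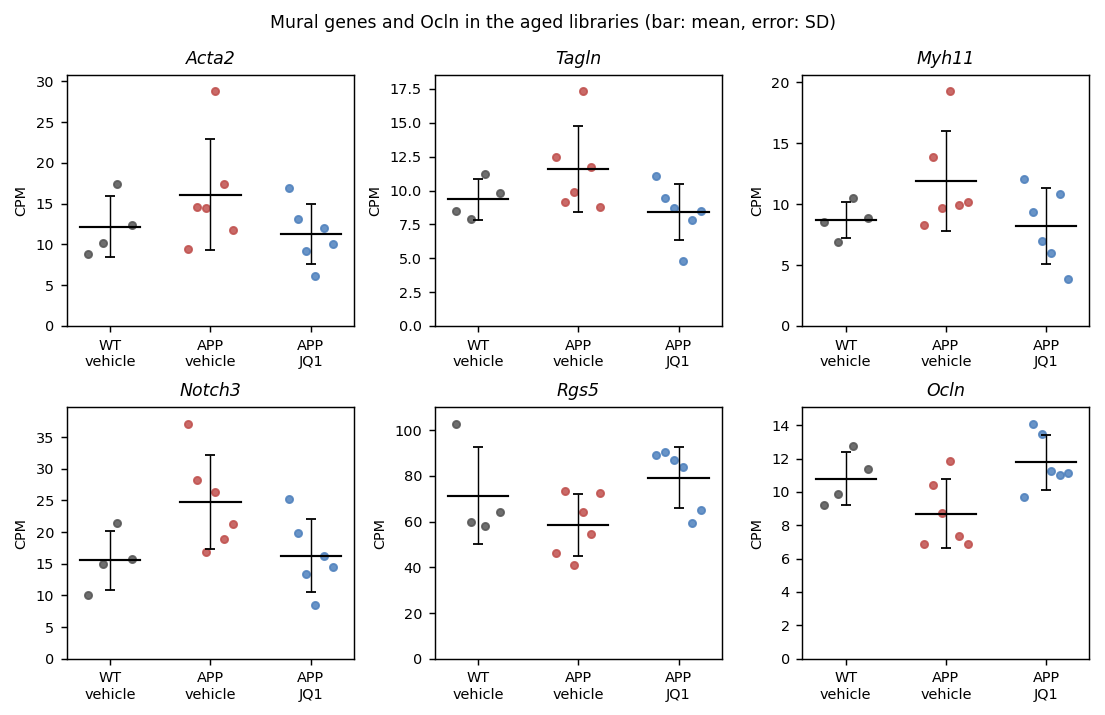
CPM (vertical axis) of 5 mural genes and of Ocln in each aged library by group; points are libraries, the bar is the mean and the error bar the SD. APP vehicle is the group with the highest mean for Acta2, Tagln, Myh11 and Notch3 and the lowest for Rgs5 and Ocln, and the groups overlap in every panel.

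Among the endothelial genes the largest difference was in Ocln, which codes for the tight junction protein occludin. It ran from 6.89 to 11.9 CPM (median 8.07) in APP vehicle samples and from 9.72 to 14.1 CPM (median 11.2) in APP JQ1 samples. Ocln differed by 0.44 (0.12 to 0.75; adjusted p = 0.148 by edgeR, exact permutation p = 0.0216, unadjusted), and it kept an unadjusted p under 0.05 with each of the 16 libraries left out in turn, but not with the GC and length offset described below (p = 0.0618 by edgeR, unadjusted). The barrier transporter genes Slco1a4 and Abcb1a (the efflux pump P-glycoprotein) had smaller differences, 0.19 (0.01 to 0.36) and 0.21 (0.01 to 0.40), with adjusted p of 0.244 and 0.264 by edgeR. Cldn5, the gene of the main seal of the barrier, ran from 23.2 to 28.3 CPM (median 25.3) with vehicle and from 17.4 to 31.1 CPM (median 23.5) with JQ1, a log2 fold change of -0.07 (-0.31 to 0.17). The VEGF receptor gene Kdr differed by 0.22 (-0.11 to 0.55) and the angiopoietin co-receptor gene Tie1 by -0.24 (-0.63 to 0.14). For 17 of the 20 endothelial genes the 95% interval lay inside a 1.5-fold change in either direction, as it did for 60.5% of all genes. It did so for 3 of the 9 mural genes, both caveolins and none of the 8 fibroblast genes. For the fibroblast genes the data thus leave a 1.5-fold change in at least 1 direction inside the interval. The medians of the log2 fold changes were 0.04 (endothelial), -0.07 (mural), 0.03 (caveolin) and -0.01 (fibroblast and meningeal), beside a median of 0.00 for all genes tested. Tagln, Rgs5, Slco1a4 and Abcb1a were chosen for naming after their values were seen.

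The estimates were correlated with the GC content of the genes. Across the 39 members the Spearman correlation between the GC content of the exons and the log2 fold change of JQ1 against vehicle was -0.50, and across the 16770 genes with a known GC content it was -0.58. These are descriptions across genes, which share the same libraries and are not independent. Of the genes described above, Slco1a4 had an exonic GC content of 40.2%, Rgs5 of 41.8% and Ocln of 44.1%, against 59.7% for Notch3. The order was not strict: Vtn, with an estimate of 0.21, was at 55.4%. When each library's dependence on GC content and exonic length was fitted and removed, the log2 fold changes became 0.23 for Rgs5, 0.30 for Ocln, 0.11 for Abcb1a and -0.05 for Slco1a4. Notch3 became -0.34. The contractile genes, whose GC content is intermediate (49.9% for Acta2, 51.5% for Tagln, 53.2% for Myh11), moved little, to -0.54, -0.45 and -0.46. Cldn5, at 60.5% GC, turned from -0.07 to 0.19. No member was called by edgeR with this offset, 3 had an unadjusted p under 0.05 (Cldn5, Slc2a1 and Tagln), and the number of genes called over the whole table went from 184 to 41.

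**Figure D3:**
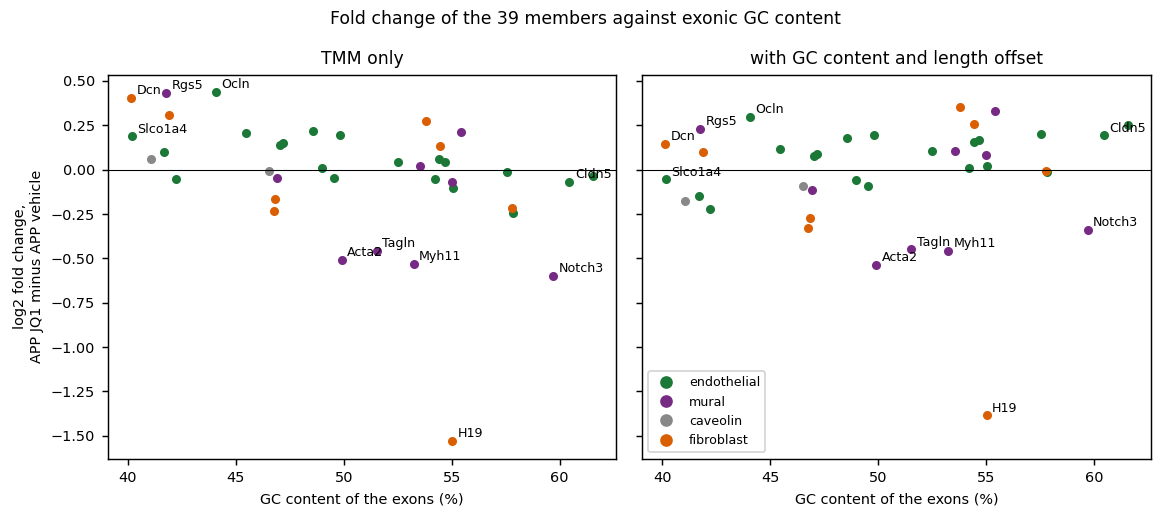
Log2 fold change of the 39 genes between APP JQ1 and APP vehicle against the GC content of their exons, without (left) and with (right) an offset for GC content and length; each point is 1 gene, coloured by class. The slope on the left has a Spearman correlation of -0.50 and that on the right 0.19; Acta2, Tagln, Myh11 and Notch3 are the 4 lowest mural genes on both sides.

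The fibroblast genes overlapped between treated and untreated APP mice. Col1a1 ran from 5.40 to 9.70 CPM (median 7.38) with vehicle and from 3.20 to 10.0 CPM (median 5.43) with JQ1, a log2 fold change of -0.21 (-0.76 to 0.33). Dcn had the highest upper end of the class with JQ1, 154 CPM against 121 CPM with vehicle, and a log2 fold change of 0.40 (-0.03 to 0.84); with the GC and length offset it was 0.15. The lumican gene Lum differed by 0.31 (-0.16 to 0.78). The caveolin genes Cav1 and Cav2, which form the flask-shaped pits of vascular cell membranes, differed by -0.01 (-0.53 to 0.51) and 0.06 (-0.30 to 0.43).

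The second comparison, APP vehicle against WT vehicle, asked what the APP genotype does to the same genes. No member was called by edgeR, against 2.57% of all genes. DESeq2 called 1, H19, against 4.75%. At an unadjusted p under 0.05 there were 5 of 39 members, all higher in APP mice, beside 14.4% of all genes in either direction, 9.42% that were higher and 5.01% that were lower. No member had groups that did not overlap, as 6.99% of all genes did. Of these estimates 28 of 39 were above 0 (71.8%), against 51.6% of all genes. Genes measured in the same libraries are not independent, and 8 of the 39 signs changed with samples left out in turn. The medians were 0.04 for the endothelial, 0.23 for the mural, 0.47 for the caveolin and 0.46 for the fibroblast and meningeal genes, beside 0.01 for all genes.

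Von Willebrand factor, the clotting protein that endothelial cells store, was among the 5. Vwf ran from 21.9 to 48.8 CPM (median 30.1) in APP vehicle samples and stood at 12.9, 22.7, 29.3 and 20.5 CPM in the WT samples. Vwf differed by 0.60 (0.02 to 1.19; adjusted p = 0.329 by edgeR, exact permutation p = 0.119), and 0.41 without WT replicate 1. Col1a1 ran from 5.40 to 9.70 CPM in APP vehicle samples and stood at 2.94, 3.77, 6.28 and 4.60 CPM in WT samples. Only WT replicate 4, the library with choroid plexus RNA, reached into the APP range. The estimate was 0.75 (0.13 to 1.37; adjusted p = 0.24 by edgeR, exact permutation p = 0.0286, unadjusted), and 0.96 without WT replicate 4. Choroid plexus RNA differed between these groups as well: 9 of 9 choroid plexus genes had lower estimates in APP mice and none was called, but without WT replicate 4 the choroid plexus sums of the WT libraries, 194.0 to 243.3 CPM, lay within the APP vehicle range of 161.1 to 249.6 CPM. Other fibroblast estimates moved with this library too: without it Igf2 went from 0.04 to 0.85, Col1a2 from 0.35 to 0.81, Col3a1 from 0.76 to 1.05 and Slc6a13 from 0.58 to 1.03. Cav2 ran from 43.7 to 82.97 CPM (median 47.0) in APP vehicle samples and stood at 52.5, 37.9, 35.8 and 31.4 CPM in WT samples. Its highest value belonged to APP vehicle replicate 1, without which the log2 fold change of 0.43 (0.01 to 0.84) was 0.25. Notch3 differed by 0.67 (0.09 to 1.25; adjusted p = 0.263 by edgeR, exact permutation p = 0.0619), and by 0.50 without WT replicate 1. Of the contractile genes, Acta2 differed by 0.40 (-0.23 to 1.02), Tagln by 0.31 (-0.14 to 0.75) and Myh11 by 0.45 (-0.14 to 1.03). Without APP vehicle replicate 4 these were 0.14, 0.15 and 0.25. Without WT replicate 4 they were 0.60, 0.39 and 0.54, while Notch3 was 0.85 and Vwf 0.78. The APP vehicle samples enter this comparison and the first with opposite signs, so estimates of opposite sign in the 2 comparisons are not separate observations.

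Barrier genes lay closer together. Cldn5 ran from 23.2 to 28.3 CPM in APP vehicle samples and stood at 20.2, 21.5, 23.8 and 22.2 CPM in WT samples, so only WT replicate 4 overlapped with the APP range. The log2 fold change was 0.22 (-0.05 to 0.48; adjusted p = 0.458 by edgeR, exact permutation p = 0.0143, unadjusted). Pdgfrb differed by 0.21 (-0.08 to 0.49; adjusted p = 0.52 by edgeR) and its exact permutation p was 0.0286, unadjusted. With the GC and length offset these were 0.07 for Cldn5 and 0.13 for Pdgfrb. Ocln differed by -0.31 (-0.67 to 0.04). Itm2a rested on 1 library: WT replicate 1 held 153.5 CPM and the other WT libraries 62.0, 61.6 and 51.7 CPM, and its log2 fold change of -0.47 (-1.10 to 0.17) was 0.01 without it. The same library was the highest WT library for Rgs5, at 102.9 CPM against 58.3 to 64.1 CPM.

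**Figure D4:**
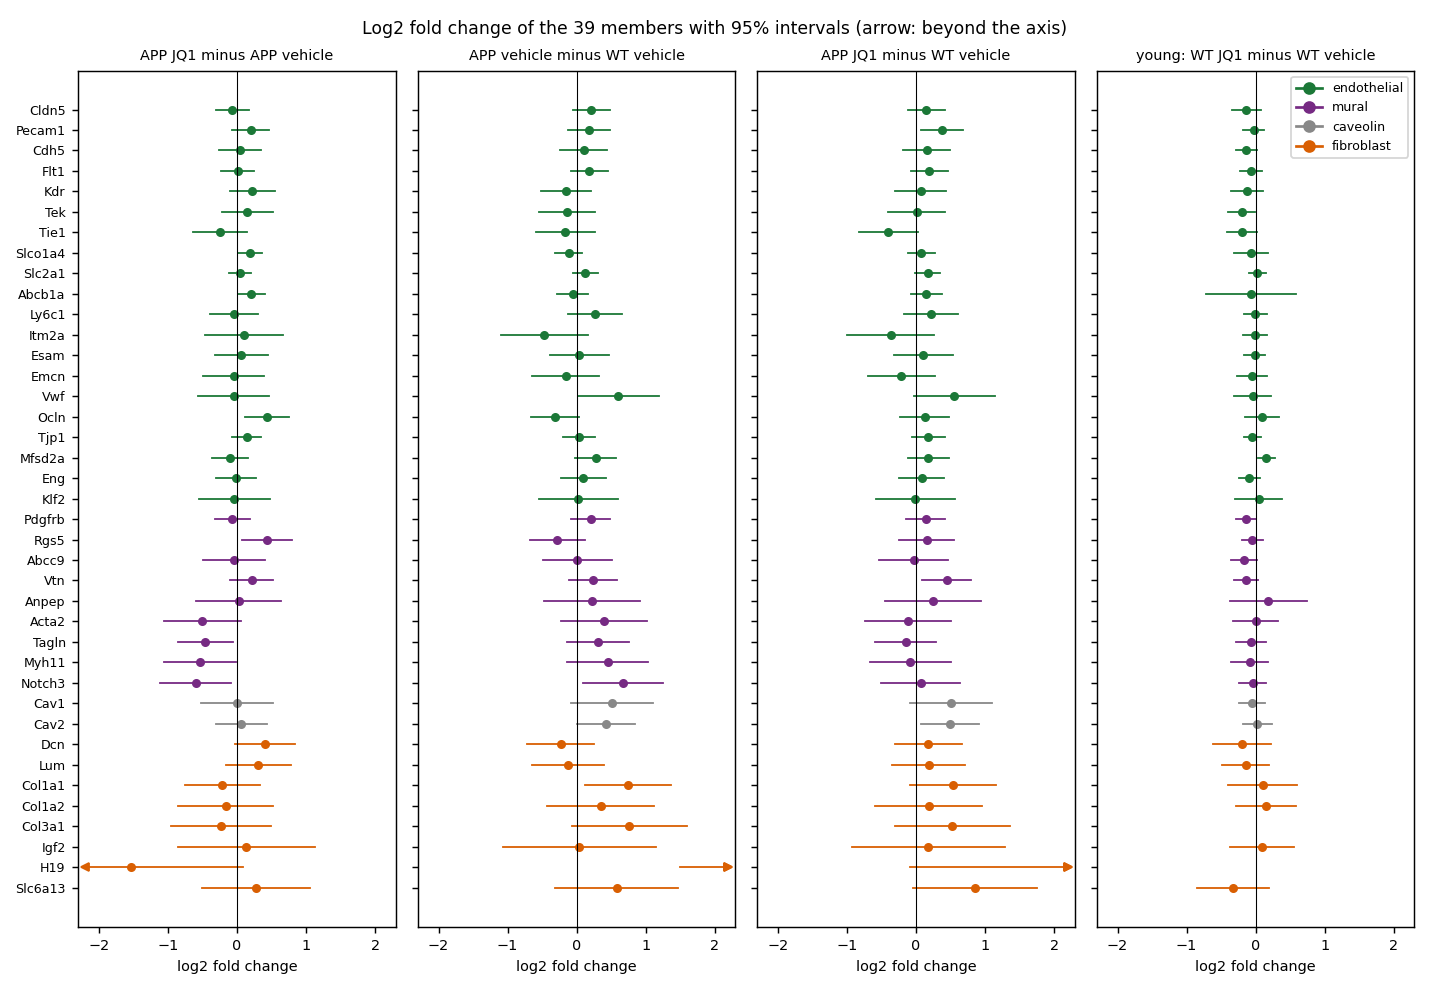
Log2 fold change (points) and 95% interval (lines) of the 39 genes in the 4 comparisons, coloured by class; Col3a1 and H19 have no point in the young comparison, where they did not pass the filter on low values. No gene passed an adjusted p of 0.05; Acta2, Tagln, Myh11 and Notch3 lie left of 0 in the first panel and right of it in the second, which shares the APP vehicle samples, and arrows mark intervals of H19 that pass the axis.

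The fibroblast and meningeal genes Igf2 and H19 are neighbours on chromosome 7 and are imprinted, that is, expressed from 1 parental copy in many tissues but not in all. The parental copy was not measured here. In build mm10 H19 lies at chr7:142575529-142578143 and Igf2 at chr7:142650766-142666816, 72.6 kb apart. In the adult brain Igf2 is made chiefly by the leptomeninges and choroid plexus, whereas H19, a non-coding RNA, is mostly silent after birth. H19 had 108 counts (4.77 CPM) in APP vehicle replicate 1 and between 0 and 18 counts in the other 15 aged libraries, of which 7 held 3 counts or fewer. The difference between APP vehicle and WT had an adjusted p of 0.0774 in edgeR and 0.00629 in DESeq2, and an exact permutation p of 0.281. Leaving out APP vehicle replicate 1 took the edgeR adjusted p to 0.177. Igf2 was lowest of all aged libraries in that same sample, at 12.8 CPM, and ran up to 73.8 CPM in the other APP vehicle samples.

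The young samples also held 1 library with high H19 and low Igf2. WT vehicle replicate 8 had 55.8 FPKM at the H19 locus, which includes Mir675, and the other 15 young libraries between 0 and 0.69 FPKM. Igf2 was lowest of all young libraries there as well, at 6.86 FPKM against 9.38 to 25.2 FPKM elsewhere. Low values in this library were not particular to Igf2. It was the lowest of its group in 5 of 8 fibroblast and meningeal, 6 of 9 mural and 7 of 20 endothelial genes. It was the highest in 1, 0 and 0 of them. Slc6a13 was low in both libraries. This GABA and taurine transporter gene of the leptomeninges stood at 3.22 CPM in APP vehicle replicate 1, the lowest of its group, and at 2.002 FPKM in young vehicle replicate 8, also the lowest of its group. Col1a2 was lowest of all young libraries in the latter, at 0.949 FPKM, whereas Col3a1 was highest of all aged libraries in APP vehicle replicate 1, at 4.46 CPM.

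Within groups, single libraries were high or low in several of the 8 genes at once. WT replicate 4 had the highest value of the 4 WT libraries in 6 of the 8 fibroblast and meningeal genes, with Igf2 at 105.0 CPM against 19.8, 32.8 and 24.9 CPM. WT replicate 1 had the lowest in 5 of the 8. APP vehicle replicates 4 and 5 were above their group's median in 6 of 8 genes each. Young vehicle replicate 7 was above its group's median in all 8 and had the highest value in 5, and young JQ1 replicate 2 had the highest in 5 of 8. This was not particular to the fibroblast class. WT replicate 4 had the highest of the WT values in 14 of 20 endothelial and 6 of 9 mural genes. WT replicate 1 had the lowest in 15 of 20 endothelial and 4 of 9 mural genes. Slc13a4, 1 of 19 further fibroblast and meningeal genes and picked outside the naming rule, followed some of these libraries. It was at 21.6 CPM in WT replicate 4, the library with choroid plexus RNA. It was at 20.2 CPM in APP vehicle replicate 4 and 16.6 CPM in replicate 5, against 1.24 CPM in APP vehicle replicate 1. Slc22a6 of the same list stood at 5.10, 10.9, 10.2 and 0.442 CPM in these libraries, in that order. Dcn did not share this order, with 105 CPM in WT replicate 4 and 109 CPM in WT replicate 1. The amount of meninges left on each sample was not measured, and its part in these differences was not tested.

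**Figure D5:**
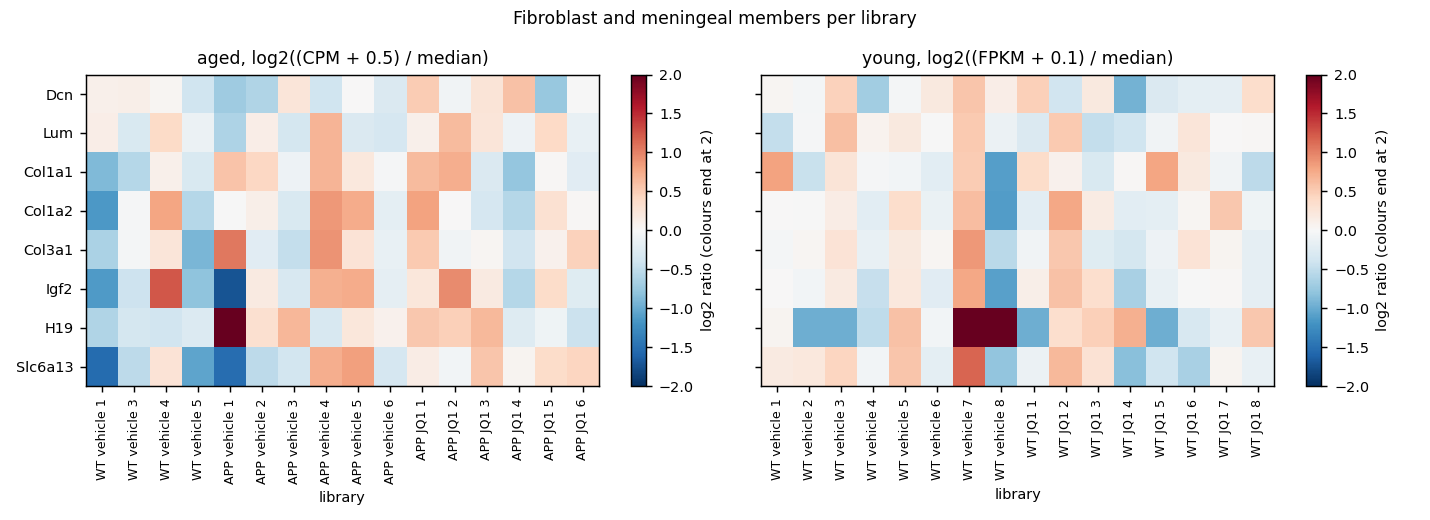
Log2 ratio of each fibroblast and meningeal gene to its median over the libraries of the same experiment, aged libraries on the left (CPM + 0.5) and young libraries on the right (FPKM + 0.1); red is above and blue below the median, and colours end at a log2 ratio of 2. Columns of mostly 1 colour include WT vehicle 1 (blue) and young WT vehicle 7 (red). H19 is dark red in APP vehicle 1 (4.77 CPM) and in young WT vehicle 8 (55.8 FPKM) and 7 (0.69 FPKM), and Igf2 is blue in the first and second of these.

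The third comparison set JQ1-treated APP mice against WT mice given vehicle. It shares its samples with the first and the second comparison, so it is not a separate test of either. No member was called by edgeR, against 2.06% of all genes, and none by DESeq2, against 4.68%. At an unadjusted p under 0.05 there were 3 of 39 members, Pecam1, Vtn and Cav2, beside 14.1% of all genes in either direction, and all 3 were higher, beside 9.64% of all genes. No member had groups that did not overlap, as 3.71% of all genes did. Of the 39 log2 fold changes 31 were above 0 (79.5%), against 50.1% of all genes. The 39 genes share the same WT libraries and are not independent, and 13 signs changed with samples left out in turn. Pecam1, an adhesion molecule of endothelial junctions, ran from 17.1 to 26.5 CPM (median 19.97) in APP JQ1 samples and stood at 15.8, 16.2, 17.8 and 16.6 CPM in WT samples, a log2 fold change of 0.37 (0.07 to 0.68; adjusted p = 0.237 by edgeR). Vtn, which codes for vitronectin, ran from 70.9 to 99.3 CPM and stood at 59.8, 60.3, 75.6 and 57.8 CPM, a log2 fold change of 0.44 (0.09 to 0.79; adjusted p = 0.214 by edgeR). Only WT replicate 4 reached into the JQ1 range of Vtn. The contractile genes of JQ1-treated APP mice had estimates near the WT level, but their intervals were wide. The log2 fold changes were -0.11 (-0.73 to 0.51) for Acta2, -0.15 (-0.60 to 0.29) for Tagln, -0.08 (-0.67 to 0.50) for Myh11 and 0.07 (-0.50 to 0.64) for Notch3. With samples left out in turn, Acta2 ran from -0.27 to 0.10, Myh11 from -0.24 to 0.06 and Notch3 from -0.11 to 0.25. Tagln stayed below 0 (-0.25 to -0.04). Slc6a13 had the largest difference apart from H19, 0.85 (-0.05 to 1.75), or 1.31 without WT replicate 4, with 9.78 to 15.2 CPM against 3.19, 6.94, 12.4 and 4.65 CPM.

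The fourth comparison was JQ1 against vehicle in young WT mice, where the intervals of most vascular genes were narrow. Of the 39 genes 37 passed the filter on low values, and Col3a1 and H19 did not. limma called none of them, against 0.00543% of 18420 loci (1 locus). At an unadjusted p under 0.05 there were 2 of 37, beside 4.65% of all loci: 1 higher (2.09% of loci) and 1 lower (2.56%). No member had groups that did not overlap, as 0.0271% of loci did. The 95% interval lay inside a 1.5-fold change for 32 of the 37 genes, among them 19 of 20 endothelial and 8 of 9 mural genes, as for 81.8% of all loci. All fold changes here are on the log2(FPKM + 0.1) scale, which understates those of low genes. The exception among the endothelial genes was Abcb1a, whose FPKM ran from 6.50 to 24.1 with JQ1 and from 7.33 to 19.9 with vehicle, a spread of 0.64 on the log2 scale against 0.15 in the aged counts. Mfsd2a, the lipid transporter that keeps vesicle transport across the barrier low, differed by 0.15 (0.03 to 0.28; adjusted p = 0.981 by limma, exact permutation p = 0.0151, unadjusted). The angiopoietin receptor gene Tek differed by -0.20 (-0.40 to -0.01). Cldn5 ran from 17.0 to 30.5 FPKM (median 23.0) with JQ1 and from 21.1 to 28.9 FPKM (median 24.7) with vehicle, a log2 fold change of -0.13 (-0.34 to 0.07), and Pdgfrb from 3.55 to 4.93 FPKM and from 4.02 to 4.76 FPKM, a log2 fold change of -0.14 (-0.28 to 0.00).

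The contractile genes had intervals around 0 in young mice. Acta2 ran from 2.49 to 5.86 FPKM (median 4.23) with JQ1 and from 2.99 to 5.52 FPKM (median 4.29) with vehicle, and its interval was -0.33 to 0.33. The intervals were -0.28 to 0.16 for Tagln, -0.35 to 0.18 for Myh11 and -0.24 to 0.15 for Notch3, which was read at the locus on its own strand among the 5 loci that bear its name. Rgs5 had an interval of -0.20 to 0.11. The estimates from aged APP mice lay outside these intervals, but without APP vehicle replicate 4 those of Acta2 (-0.26) and Myh11 (-0.34) lay inside. The aged estimates have wide intervals of their own. The experiments also differed in genotype, age, days of treatment and measure (FPKM against counts), and the study describes its young mice as males and its aged APP mice as females, so the difference between the 2 experiments was not tested. Of the 37 log2 fold changes 28 were below 0, and 24.3% were above 0 against 51.1% of all loci. The medians were -0.05 for endothelial and -0.06 for mural genes. Genes of the same libraries are not independent, and 16 of the 37 signs changed with samples left out in turn. The fibroblast genes had wider intervals: Slc6a13 differed by -0.33 (-0.85 to 0.19), Dcn by -0.20 (-0.62 to 0.22), Lum by -0.15 (-0.49 to 0.20) and Col1a1 by 0.10 (-0.40 to 0.60).

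Other genes of vessels, kept apart from the 39, gave a few calls. In APP vehicle against WT, 3 of 26 further endothelial genes were called by edgeR, beside 2.57% of all genes: the transporter gene Slco1c1 fell by 0.47 on the log2 scale (adjusted p = 0.0253), and Icam1, an adhesion molecule that vessels and microglia share, and the junction gene F11r rose by 1.92 and 0.96 (adjusted p = 0.0224 and 0.0146). Of 23 vascular ligands and receptors, Tgfb1, Tgfbr1 and Tgfbr2 rose by 1.37, 1.13 and 1.37. These genes of the TGF-beta pathway are also made by microglia, and the microglial markers Cx3cr1 and Csf1r rose by 1.18 and 1.28 on the log2 scale in the same comparison. The part of microglial RNA in the vascular calls was not tested. Lrp5, a Wnt co-receptor, was the 1 call of 13 barrier Wnt genes, higher by 0.72. In APP JQ1 against APP vehicle 2 of the 23 ligands and receptors were called, beside 1.08% of all genes: Bmpr2, a receptor for bone morphogenetic proteins, rose from 6.09 to 30.4 CPM (mean; log2 fold change 2.32, adjusted p = 0.00585 by edgeR) and the Notch ligand gene Jag2 fell by 0.47 on the log2 scale. None of 16 further mural genes, 19 further fibroblast genes or 13 basement membrane genes was called in the 2 comparisons by edgeR, with 2, 3 and 3 of them at an unadjusted p under 0.05 for JQ1 (17.6% of all genes) and 1, 3 and 2 for genotype (14.4%). DESeq2 called 1 basement membrane gene in each. In young mice limma called no gene of these lists. An unadjusted p under 0.05 was found for 1 of 25 further endothelial, 2 of 13 further mural and 1 of 22 ligand and receptor genes. The share of all loci was 4.65%, and the further fibroblast, barrier Wnt and basement membrane genes held none. With its own test, the study listed Slc47a1, a gene of the further fibroblast list, as lower with JQ1 in young mice. When APP vehicle replicate 1 and WT replicate 4 were left out together, no gene of the whole table was called in APP vehicle against WT by edgeR, with 2431 genes at an unadjusted p under 0.05.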

How the data were processed

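CA1 RNA of 33 labelled mouse samples was sequenced, and 32 were analysed. For the aged samples the authors aligned reads to mm10 with STAR and deposited counts per gene from HTSeq; the no-feature share of 15.4 to 26.9% was left out. For the young samples the authors deposited FPKM per locus from the Cufflinks tools, so that depth is unknown there. CASAVA 1.8.2 is among the tools in the submitters' processing notes. Groups came from the sample labels.

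Counts were tested with edgeR 4.0.16 (quasi-likelihood, TMM, its default filter on low counts, 1 model over the 3 aged groups), and FPKM with limma 3.58.1 on log2(FPKM + 0.1), for loci with at least 0.5 FPKM in 8 samples. P-values were adjusted by Benjamini-Hochberg over all 16962 genes or 18420 loci, with a threshold of 0.05. DESeq2 1.42.0 was an alternative, and single genes were also compared by exact two-sided permutation of the group means, unadjusted. Intervals cover 95%. GC content and exonic length were available for 16770 tested genes. The models were tested on simulated data. Named genes were Cldn5, Pdgfrb and Col1a1, any called member, members with groups that do not overlap, and the 3 members of each class with the largest log2 fold change in each comparison; any other member was named after its values were seen. The members and gene lists were chosen with earlier results of these data known. The alternatives were another scaling, other filters, other pseudocounts, only the groups compared, a GC and length offset, a replicate block, and each sample left out. Equal replicate numbers did not mark paired samples in the labels. Some items are not reported here.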

Additional observations from a re-analysis of the deposited data

Results flagged for a closer look

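Of 220 sets of values tested, 18 held 1 sample far from the others of its group by Dixon's criterion, where chance alone marks about 1 group in 20. WT vehicle replicate 4 had a choroid plexus sum of 4230 CPM (next 243.3), Igf2 of 105.0 CPM (next 32.8) and Vtn of 75.6 CPM (next 60.3). WT vehicle replicate 1 had Itm2a of 153.5 CPM (next 62.0) and Rgs5 of 102.9 CPM (next 64.1). APP vehicle replicate 1 had H19 of 4.77 CPM (next 0.704), Cav2 of 82.97 CPM (next 51.2) and a caveolin sum of 127.9 CPM (next 84.4). APP vehicle replicate 4 had a choroid plexus sum of 249.6 CPM (next 180.0), and Pdgfrb was low in APP vehicle replicate 3 at 26.1 CPM (next 29.9). Among APP JQ1 samples, Cdh5, the endothelial cadherin gene, was 17.7 CPM in replicate 1 (next 11.6) and Slc2a1 was low in replicate 2 at 94.1 CPM (next 110.1).

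In young vehicle samples, the H19 locus was 55.8 FPKM in replicate 8 (next 0.690), Kdr 3.29 FPKM in replicate 3 (next 2.57), and in replicate 7 Col3a1 was 0.847 FPKM (next 0.526) and Pdgfrb low at 4.02 FPKM (next 4.45). In young JQ1 samples, Vtn was 38.5 FPKM in replicate 2 (next 32.7) and the endothelial sialomucin gene Emcn low in replicate 7 at 2.17 FPKM (next 3.15). The causes were not tested.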

How the results depend on the processing

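No member was called under any alternative or with any sample left out, except H19 in APP vehicle against WT by DESeq2 (1 member, log2 fold change 3.83). Counts over all genes moved more; they are given for JQ1 against vehicle in APP mice, APP vehicle against WT, and APP JQ1 against WT, in that order. DESeq2 gave 751, 806 and 793. Only the groups compared gave 679 and 227 in the last 2. The replicate block gave 87, 35 and 21, and with the GC and length offset 35, 46 and 68. Libraries of equal number had correlations over 0.1 in 3 of 6, 0 of 4 and 1 of 4 pairs, and in 1 of 8 in young mice. The best match was the library of the same number in 3 of 6, 1 of 4, 1 of 4 and 2 of 8. Whether equal numbers mark pairs was not settled. The offset alone gave 41 in the first. With APP vehicle replicate 1 and WT replicate 4 left out together, an alternative chosen after seeing the data, the counts were 115, 0 and 56. Leaving out each sample gave 65 to 446 (lowest without APP JQ1 replicate 2), 154 to 601 and 11 to 651, and 0 to 2 in young mice, where the replicate block and the absence of a filter each gave 0. The cause was not tested.

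For JQ1 against vehicle in APP mice, the GC and length offset turned the sign of 10 of 39 members (without the block), among them Slco1a4 (-0.05) and, without and with the block, Cldn5 (0.19, 0.18), Pdgfrb (0.084, 0.071) and Cav2 (-0.18, -0.18), and Cav1 was 0.18 without the 2 samples. With samples left out in turn, signs changed for 17 of 39 members, among those the naming rule chose Cldn5 (-0.15 to 0.010), Cav1 (-0.22 to 0.18) and Cav2 (-0.0030 to 0.24), for 8 of 39 in APP vehicle against WT, such as Itm2a (-0.68 to 0.014), and in young mice for 16 of 37, such as Cav1 (-0.090 to 0.0023), Cav2 (-0.019 to 0.067) and Col1a1 (-0.050 to 0.22). For APP JQ1 against WT, leaving out samples in turn changed signs for 13 of 39 members, such as Acta2 (-0.27 to 0.10). In the aged libraries 38 members had at least 10 counts in every library, and H19 had 0 to 108.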
